A study of Mus musculus with 4 samples.

Results

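The 83 genes described here carry the names of proteins of the cytoplasmic ribosome in mouse, and nearly all encode such proteins. Their levels were read from single-cell RNA profiles of macrophages of perigonadal white adipose tissue (gWAT). They are the genes with a symbol beginning Rpl or Rps and a digit, or Rplp, together with Rpsa. Names that mark pseudogenes (-ps) and the S6 kinases (Rps6k) were left out. A gene also had to reach 10 CPM (its UMIs, the counted molecules, scaled to the same total in every library) in the pooled kept cells of at least 1 library. Of 32285 genes in the files, 86 symbols matched and 83 passed the minimum, 49 named for the large subunit and 34 for the small one. The 3 that did not pass were Rpl10l, Rpl39l and Rpl3l, which in human and mouse are tissue-restricted copies of Rpl10, Rpl39 and Rpl3. Just outside the minimum, Rpl3l had 0.148 CPM in WT and 0.494 in CKO on HFD, and 2.66 in WT and 2.16 in CKO on normal diet. Just inside it, Rps19bp1 had 38.5 CPM in WT and 43.6 in CKO on HFD, and 22.0 in WT and 22.9 in CKO on normal diet.

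The study compared mice with a conditional knockout (CKO) of Prdm1, the gene of the transcription factor BLIMP1, with WT mice, each on high-fat diet (HFD) or normal diet, called standard diet in the series' design text. Each of the 4 combinations was 1 droplet 3′ library (10x Genomics Chromium) of cells sorted as live CD45+Lin-CD11b+CD64+. The sources used here do not give the Cre driver, the deleted exons, the ages or the number of animals per library. With 1 library per group there is no replicate, so genotype and diet cannot be told apart from the library, no test of a condition was possible, and each 95% interval covers counting error only. A gene is called higher or lower where its ratio passed 1.5-fold.

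Prdm1 itself was not lower in the libraries labelled CKO, with 21.9 CPM (exact Poisson interval 20.8 to 22.9) in WT and 22.9 (21.5 to 24.3) in CKO on HFD, and 22.9 (20.9 to 25) in WT and 28.4 (26.3 to 30.5) in CKO on normal diet. A 3′ tag outside a deleted exon checks nothing, so CKO below means the library so labelled. Values given 4 at a time follow the order WT and CKO on HFD, then WT and CKO on normal diet. The kept cells numbered 4650, 8731, 3705 and 4302, with median unique molecular identifiers (UMIs) per cell of 14492.5, 3923, 4092 and 3939. WT HFD was thus the deeper library and lost 400 cells to the limit on mitochondrial UMIs, against 7, 23 and 23 in the others. Gm42418, a transcript that overlaps a ribosomal RNA repeat, took 4.46%, 0.691%, 3.00% and 3.53% of UMIs, so CKO HFD stood apart from the other libraries. Between 2 and 9 barcodes were shared by each pair of libraries. Of the genes of the sort's markers, Ptprc (CD45) had 433, 318, 875 and 787 CPM and Itgam (CD11b) 179, 179, 310.5 and 309.7. Fcgr1 (CD64) had 92.0, 66.3, 32.7 and 29.8 CPM, and was higher in both HFD libraries than in those on normal diet.

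Ribosomal proteins join ribosomal RNA to form the small (Rps) and large (Rpl) subunits that translate mRNA. In mammals their mRNAs begin with a terminal pyrimidine tract, through which the growth-sensing kinase mTORC1 and the RNA-binding protein LARP1 control their translation. Introns of many of these genes also hold small nucleolar RNAs (snoRNAs), which guide the modification of ribosomal RNA. In macrophages, as in other cells, their mRNAs are short, abundant and stable.

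The starts of 8 genes named below, 4 lower and 4 higher in CKO HFD than in WT HFD, are shown so that their starts can be compared. Each run holds 60 bases before and 20 bases from the RefSeq start, from GRCm38.p6, read 5′ to 3′ on the gene's strand. Capitals mark a run of at least 6 pyrimidines, taken from the C nearest to the start that allows this length. Pyrimidines before that C, and runs farther from the start, stay in lower case.
Rpl12 (chr2:32961652-32961731, plus strand): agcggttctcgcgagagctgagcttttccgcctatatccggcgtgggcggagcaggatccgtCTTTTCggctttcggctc
Rps6 (chr4:86857348-86857427, minus strand): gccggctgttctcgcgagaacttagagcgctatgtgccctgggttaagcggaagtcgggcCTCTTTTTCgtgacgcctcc
Rpl13a (chr7:45128726-45128805, minus strand): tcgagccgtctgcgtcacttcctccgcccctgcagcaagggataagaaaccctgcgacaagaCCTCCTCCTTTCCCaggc
Rps12 (chr10:23787190-23787269, minus strand): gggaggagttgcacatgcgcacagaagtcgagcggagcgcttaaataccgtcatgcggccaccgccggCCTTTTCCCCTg
Rpl37a (chr1:72711200-72711279, plus strand): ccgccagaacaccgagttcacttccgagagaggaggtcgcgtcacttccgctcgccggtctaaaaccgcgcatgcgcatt
Rpl39 (chrX:37085203-37085282, minus strand): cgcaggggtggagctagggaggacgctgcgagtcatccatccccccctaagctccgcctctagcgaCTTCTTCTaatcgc
Rpl22l1 (chr3:28805448-28805527, plus strand): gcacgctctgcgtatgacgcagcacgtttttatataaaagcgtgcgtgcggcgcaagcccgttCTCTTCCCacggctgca
Rpl35 (chr2:39005112-39005191, minus strand): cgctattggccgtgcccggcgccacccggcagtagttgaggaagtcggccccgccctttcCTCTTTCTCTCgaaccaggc

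The first 4 are those that were lower. Rpl37a had no such run near its start, and the other 7 had one. Of the 83 genes, 63 matched a RefSeq window (250 bases before to 50 after the start). The tract, sought within 20 bases of the start, was found in 39 of these (61.9%) and in 32.3% of the 26962 other genes. It began within 2 bases of the start in 20 of them (31.7%), against 5.54% of other genes. The letters CCGGAAG, bound by ETS factors, occurred on either strand in 24 windows (38.1%), against 9.09% of other genes. The YY1 letters AAGATGGC were found in 5 (7.94% against 2.84%), TATAAA in 6 (9.52% against 14.2%) and the GC box GGGCGG in 39 (61.9% against 35.9%). These are matches of letters, not sites shown to be bound.

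Rpl41, the smallest, is shown whole because ratios are set against coding length below and it has the shortest. Its coding sequence in the GENCODE M21 annotation of GRCm38 is 78 bases with the stop, and encodes 25 residues. The coding sequences of Rps27 and of Rps27rt, a gene of 1 exon on another chromosome, are shown once because both are the same 255 bases. The coordinates are those of the whole genes.
Rpl41 (chr10:128548114-128549305, minus strand): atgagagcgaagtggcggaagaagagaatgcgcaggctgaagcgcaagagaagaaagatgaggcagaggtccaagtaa
Rps27 (chr3:90212522-90213651, minus strand): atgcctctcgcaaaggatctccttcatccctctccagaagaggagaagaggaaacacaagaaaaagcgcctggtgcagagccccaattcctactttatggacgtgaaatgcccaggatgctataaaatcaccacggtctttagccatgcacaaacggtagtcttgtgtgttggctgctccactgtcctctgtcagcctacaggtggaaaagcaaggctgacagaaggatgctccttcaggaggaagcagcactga
Rps27 and Rps27rt differ at 0 bases, so UMIs of this pair could not be fully separated. More widely, 35 of the 83 genes shared over 50% of the 90-base windows in the last 300 bases of their mRNA with transcripts of other genes, and 27 shared none. Counts of the former depend on how reads matching several genes were assigned, which the sources used here do not say.

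Ribosomal protein genes gave 15.4% of UMIs in WT and 20.7% in CKO on HFD, and 13.6% in WT and 12.4% in CKO on normal diet. The library labelled CKO HFD was highest and the pair on normal diet lowest. Large-subunit genes took 8.43%, 11.4%, 7.19% and 6.59%, and small-subunit genes 7.0%, 9.30%, 6.37% and 5.79%. CKO exceeded WT on HFD by a ratio of 1.34 (exact interval 1.339 to 1.341) and stood at 0.913 (0.912 to 0.914) of WT on normal diet. HFD exceeded normal diet by 1.14 (1.137 to 1.140) in WT and by 1.67 (1.669 to 1.673) in CKO. These 4 ratios share libraries and are not independent.

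Single cells spread widely around these shares. The median cell held 15.3% ribosomal protein UMIs in WT and 20.04% in CKO on HFD, and 10.9% in WT and 9.96% in CKO on normal diet. The 10th and 90th percentiles were 10.2% and 20.7% in WT and 13.02% and 26.5% in CKO on HFD, and 5.14% and 18.2% in WT and 4.87% and 16.5% in CKO on normal diet. Cells above 25% made up 16.1% of CKO HFD (1403 cells), against 1.96% of WT HFD, and 0.864% of WT and 0.279% of CKO on normal diet. Cells under 5% made up 9.31% of WT and 10.6% of CKO on normal diet, against 0.903% and 0.298% of WT HFD and CKO HFD. Within a library the share and the cell's UMI total had a Spearman rho of 0.59 in WT and 0.58 in CKO on normal diet, and 0.04 in WT and 0.30 in CKO on HFD, given as a description over cells that share a library. Thinning each cell to 2000 UMIs, which left out 67, 1076, 675 and 820 cells, gave shares of 15.4%, 20.5%, 12.4% and 11.2%.

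**Figure D1:**
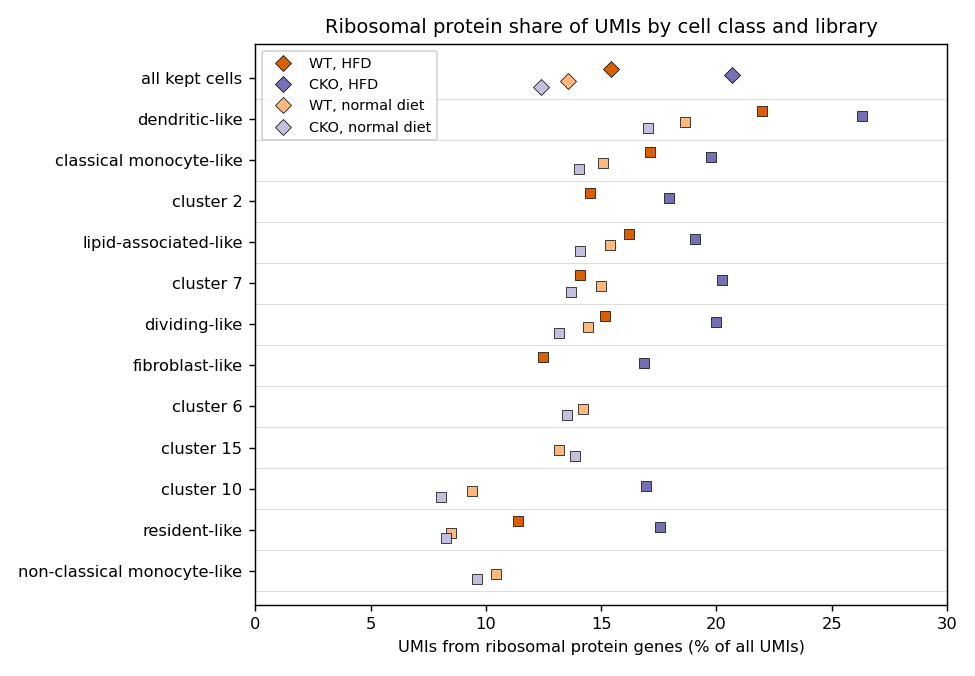
Percent of UMIs from the 83 ribosomal protein genes in each library and in each cell class or cluster with at least 50 cells in that library, for classes that reach this in 2 or more libraries. Diamonds are all kept cells, squares single classes. Dendritic-like cells stood at 26.3% and resident-like cells at 17.5% in CKO HFD, and at 18.7% and 8.50% in WT normal diet.

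The members ranged over a wide span of CPM. All 83 were counted in every library, 53 of them at 1000 CPM or more in all 4, and 3 (Rps19bp1, Rpl7l1 and Rps27rt) stayed under 100 CPM throughout. Rps19bp1 encodes a regulator of Sirt1 and Rpl7l1 a relative of Rpl7, so that neither is counted among the standard subunit proteins. The median member had 1831, 2391, 1431 and 1369 CPM. The 10 highest members of each library gave 22.3%, 26.7%, 30.01% and 28.0% of its ribosomal protein UMIs. CPM counts tagged 3′ ends and was not divided by length, so levels are compared here between libraries and not between genes.

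Relative to WT HFD, 64 of the 83 genes had a higher CPM in the library labelled CKO HFD. Past 1.5-fold, 28 were higher and 5 lower, against 5.38% and 20.7% of all 7864 genes tested. The counts were 40 and 1 with TMM factors, and 16 and 6 with a total over genes below the median span. The median log2 ratio (of CPM + 1) was 0.36, and −0.21 over all genes tested. On normal diet no member passed 1.5-fold in either direction (0.493% and 0.592% of 8111 genes did), 20 had a ratio above 1, and the median log2 ratio was −0.06 against 0.03 over all genes. Diet in WT put 26 members higher and 5 lower on HFD, against 13.2% and 24.6% of 8342 genes, with a median of 0.40 against −0.17. Here they were 41 and 2 with TMM factors. Diet in CKO put 55 higher and 0 lower, against 11.8% and 42.6% of 8235 genes, with a median of 0.79 against −0.42. These were 72 and 0 with TMM factors, and 34 and 1 with the total over genes below the median span. Members did not move by a single shift. Their log2 ratios ran from −0.81 to 1.32 for genotype on HFD and from −1.05 to 1.49 for diet in WT, and from −0.46 to 0.16 for genotype on normal diet.

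**Figure D2:**
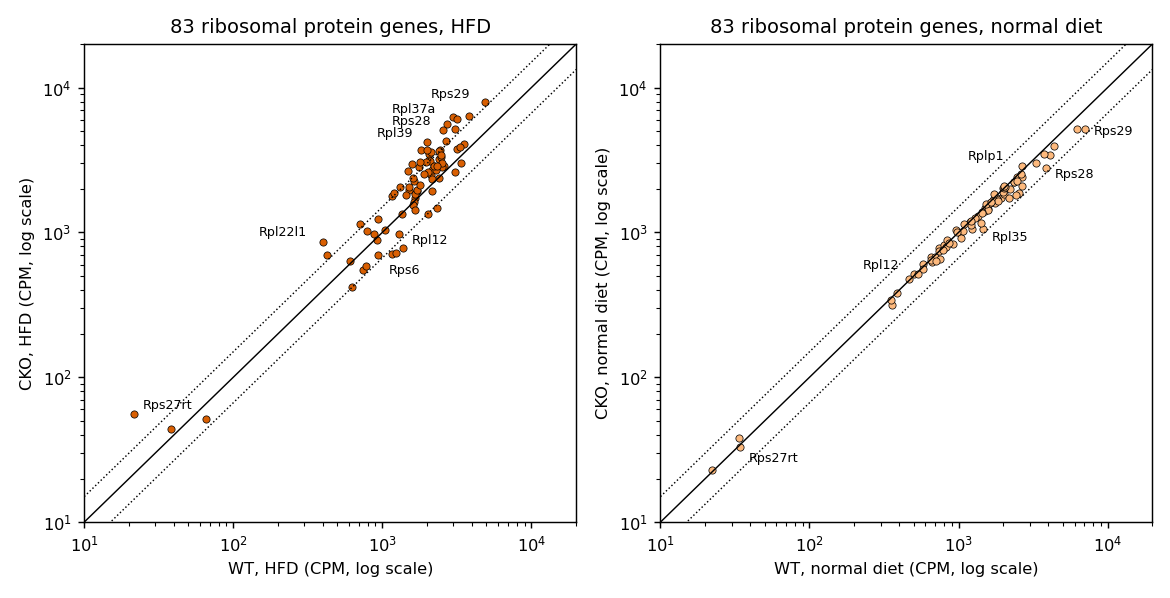
CPM of each of the 83 genes in the 4 libraries, on a log axis. Members run from 21.6 CPM (Rps27rt in WT HFD) to 7974 CPM (Rps29 in CKO HFD).

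Dividing each gene by the ribosomal protein UMIs of its library shows which members changed their part of the pool, free of the total. For genotype on HFD, 6 members passed 1.5-fold higher (1.53% of all genes, on the same divisor) and 13 lower (55.6%). The 6 were Rpl37a, Rpl37, Rpl35a and Rpl39 of the large subunit, the Rpl22 paralog Rpl22l1, and Rps27rt. The 13 included Rpl12, Rpl5, Rpl13a, Rpl4, Rpl23a, Rpl17 and Rpl10 of the large subunit and Rps6, Rps12 and Rps15 of the small one. A snoRNA gene lay inside 2 of the 6 and 9 of the 13, with 30 of all 83 holding one, and the median coding length was 283.5 bases in the former and 609 in the latter. On normal diet 0 members passed (1.22% higher and 0.222% lower among all genes). For diet in WT 18 were higher and 8 lower (8.67% and 35.8%), and for diet in CKO 6 and 11 (1.8% and 76.1%). With equal weight to cell classes the latter were 1 and 9. On this divisor most genes fall where the ribosomal protein pool is larger, so that the background moves with the pool.

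Of the genes lower in CKO HFD, Rpl12 (uL11), which forms the base of the stalk where translation factors bind, had 1378 CPM in WT and 784 in CKO on HFD, and 499 in WT and 516 in CKO on normal diet. WT HFD was high and the other 3 lay between 499 and 784 CPM. The CPM ratio of CKO to WT on HFD was 0.569 (95% interval 0.562 to 0.576), and 1.03 on normal diet. HFD exceeded normal diet 2.76-fold in WT and 1.52-fold in CKO. The gene lies at chromosome 2, bases 32961559 to 32965345, plus strand (GRCm38), and Snora65 lies inside it.

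Rps6, the small-subunit protein phosphorylated by S6 kinase, had 1169.7 CPM in WT and 708 in CKO on HFD, and 741 in WT and 778 in CKO on normal diet. WT HFD again stood above the rest, at 0.605 (95% interval 0.597 to 0.613) for CKO over WT on HFD and 1.05 on normal diet, and 80.1% of its last windows were shared with other transcripts. Rpl13a, which in human monocytes also takes part in silencing inflammatory mRNAs, had 1233 CPM in WT and 719.5 in CKO on HFD, and 800.1 in WT and 775 in CKO on normal diet. Its ratio was 0.583 (95% interval 0.576 to 0.591) on HFD and 0.968 on normal diet, and 4 snoRNA genes lie inside it. Rps12, of the small subunit's head, had 2315 CPM in WT and 1473 in CKO on HFD, and 1706 in WT and 1666 in CKO on normal diet, all of its last windows being shared. Rpl17, at the peptide exit tunnel, had 2027, 1347, 979 and 1002 CPM. These 5 were the members past 1.5-fold lower in CPM for genotype on HFD.

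Of the genes higher in CKO HFD, Rpl37a, a zinc-binding protein of the large subunit, had 2996 CPM in WT and 6298 in CKO on HFD, and 6204 in WT and 5139 in CKO on normal diet. WT HFD was low and the other 3 lay between 5139 and 6298 CPM. The ratio of CKO to WT was 2.10 (95% interval 2.09 to 2.11) on HFD and 0.828 on normal diet. Rpl39, a small protein that lines the exit tunnel, had 1991 CPM in WT and 4189 in CKO on HFD, and 2684 in WT and 2092 in CKO on normal diet. Here CKO HFD alone was high in CPM, at 2.10 (95% interval 2.09 to 2.12) times WT HFD, and CKO was below WT on normal diet (0.779). As a share of ribosomal protein UMIs, Rpl39 in CKO HFD and WT normal diet lay close, at log2 0.21 and 0.18 over its mean share. By that measure WT HFD was lowest (−0.44), with CKO normal diet at −0.05. Rpl35a, mutated in some human families with Diamond-Blackfan anaemia, had 2731 CPM in WT and 5616 in CKO on HFD, and 4380.2 in WT and 3921 in CKO on normal diet, and its ratio was 2.06 (95% interval 2.04 to 2.07) on HFD.

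Rpl22l1, the paralog that can take the place of Rpl22, had 403 CPM in WT and 862 in CKO on HFD, and 355 in WT and 343 in CKO on normal diet. It was high in CKO HFD alone, the other 3 lying within 343 to 403 CPM, with a ratio of 2.14 (95% interval 2.11 to 2.17) on HFD and 0.968 on normal diet. Rps27rt, the single-exon copy of Rps27, had 21.6, 55.5, 34.1 and 32.9 CPM and the highest ratio of CKO to WT on HFD, 2.57 (95% interval 2.41 to 2.74). Rps27 itself, all of whose last windows were shared with other transcripts, had 1482 CPM in WT and 2672 in CKO on HFD, and 2559.5 in WT and 1879.6 in CKO on normal diet, a ratio of 1.80 on HFD.

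The stalk proteins, which recruit elongation factors, did not follow 1 pattern. Rplp0 had 2399 CPM in WT and 2391 in CKO on HFD, and 1200.3 in WT and 1178 in CKO on normal diet, about level between the genotype labels on either diet. Rplp1 had 3383 CPM in WT and 3037 in CKO on HFD, and 2673 in WT and 2884 in CKO on normal diet. Rplp2 had 1708, 1948, 1629.6 and 1604 CPM. CKO over WT on HFD stood at 0.997, 0.898 and 1.14 for the 3, and HFD over normal diet in WT at 2.00, 1.27 and 1.05. Scaling by TMM instead of total UMIs turned Rplp0 and Rplp1 above 1 for genotype on HFD, and Rpl7 (0.986) as well. Rpl5, which carries 5S ribosomal RNA and binds Mdm2, had 745 CPM in WT and 555 in CKO on HFD, and 658 in WT and 673 in CKO on normal diet. Rpl23a, at the tunnel exit where the signal recognition particle docks, had 777 CPM in WT and 588 in CKO on HFD, and 821 in WT and 791 in CKO on normal diet, and CKO HFD was the lowest library for both.

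Among members with 50 CPM or more, the 3 with the highest ratio of CKO to WT on normal diet were Rplp1 (1.08), Rpl7 (1.08) and the X-linked Rps4x (1.06), all within 1.1-fold of WT. The 3 lowest were Rps29, Rps28 and Rpl35, at 0.728 (95% interval 0.723 to 0.734), 0.729 and 0.730. Rps29, a zinc-binding protein of the small subunit's head, had 4903 CPM in WT and 7974 in CKO on HFD, and 7069 in WT and 5147 in CKO on normal diet. Rps28 had 2535 CPM in WT and 5059 in CKO on HFD, and 3843 in WT and 2800.3 in CKO on normal diet. Rpl35, whose last windows were 95.3% shared, had 1307 CPM in WT and 2053 in CKO on HFD, and 1451 in WT and 1058 in CKO on normal diet. All 3 were lower in CKO than in WT on normal diet and higher on HFD.

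Other members differed by diet. Rpl21, with a tail shared in part with 33 other genes, had 1627 CPM in WT and 1632 in CKO on HFD, and 578 in WT and 608 in CKO on normal diet, and HFD exceeded normal diet by 2.82 (95% interval 2.76 to 2.87) in WT and 2.68 in CKO. Rpl10, which is needed for late maturation of the large subunit, had 1666 CPM in WT and 1424 in CKO on HFD, and 746 in WT and 654 in CKO on normal diet, with ratios of 2.23 and 2.18. Rps18, of the small subunit's head, had 2217 CPM in WT and 2862 in CKO on HFD, and 1072 in WT and 1024 in CKO on normal diet, with ratios of 2.07 and 2.80. Rpl29 had 929, 1244, 463 and 476 CPM, with ratios of 2.01 and 2.61. In these 4 genes both HFD libraries lay above both normal diet libraries. Rpl37a, Rps27 and Rpl35a were instead lower on HFD in WT (0.483, 0.579 and 0.623) and higher in CKO (1.23, 1.42 and 1.43). Rpl37a in CKO stood at 0.993 when the total was taken over the genes below the median span.

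**Figure D3:**
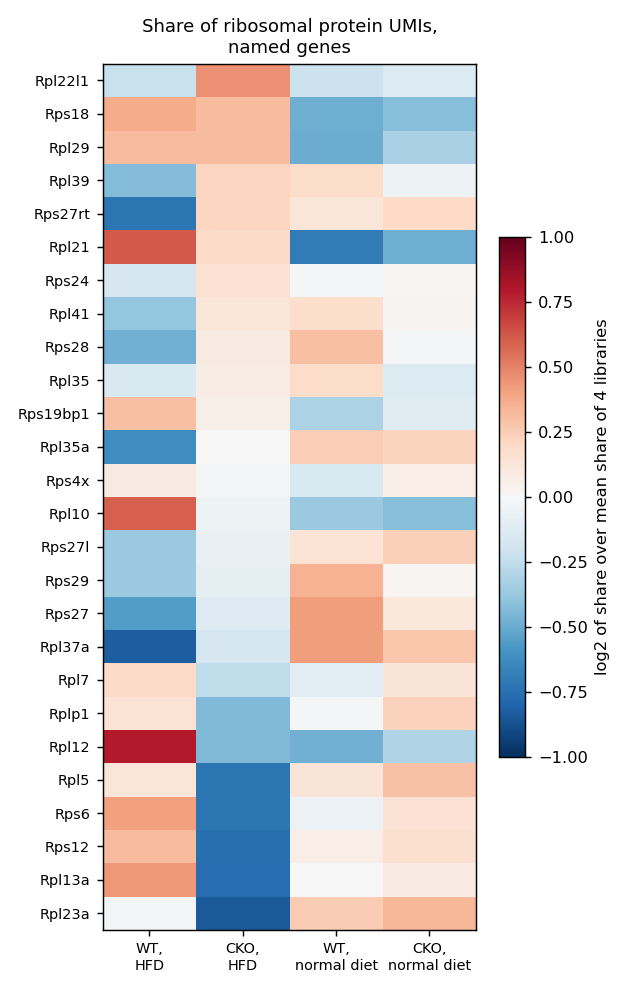
Share of each library's ribosomal protein UMIs taken by 26 named members, as the log2 of that share over its mean in the 4 libraries (red above, blue below the mean), with members in rows and libraries in columns. Rpl12, Rps6 and Rpl13a are highest in WT HFD, and Rpl22l1 and Rpl39 highest in CKO HFD.

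Rpl41, the short basic protein shown above, had 3190.3 CPM in WT and 6077 in CKO on HFD, and 4129.6 in WT and 3403 in CKO on normal diet. Rps24, another member mutated in human Diamond-Blackfan anaemia, had 3829 CPM in WT and 6406 in CKO on HFD, and 3759.6 in WT and 3487 in CKO on normal diet. CKO HFD was the highest library for both. Rps19, the protein most often mutated in that disease, had 2439 CPM in WT and 3712 in CKO on HFD, and 1760.4 in WT and 1599 in CKO on normal diet. Rpl3, near the peptidyl transferase centre, had 1606 CPM in WT and 1535 in CKO on HFD, and 832 in WT and 883 in CKO on normal diet. For Rpl3 both HFD libraries lay above both normal diet ones, and for Rps19 CKO HFD was the highest. Rps4x had 2323, 2896, 1723 and 1830.1 CPM and Rpl7 1354, 1335, 968 and 1044 CPM. Rpl7l1, its low relative, had 66.0, 51.7, 33.9 and 37.8 CPM.

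The other 49 members spanned 318 CPM (Rpl31) to 5192 CPM (Rps27a, made as a fusion with ubiquitin). For genotype on HFD, 42 of them had a ratio above 1, 13 passed 1.5-fold higher and 1 lower, from 0.665 for Rpl17 to 2.03 for Rpl37. Rpl37 had 1831 CPM in WT and 3715 in CKO on HFD, and 2180.0 in WT and 1735 in CKO on normal diet, high in CKO HFD. For genotype on normal diet 9 were above 1, within 0.753 (Rpl38) and 1.05 (Rps2). For diet in WT 40 were above 1, 15 past 1.5-fold, from 0.735 for Rpl38 to 2.09 for Rps3. Rps3, which sits where mRNA enters the ribosome, had 1661 CPM in WT and 1856 in CKO on HFD, and 796 in WT and 815 in CKO on normal diet. For diet in CKO 47 were above 1 and 35 past 1.5-fold, from 0.923 for Rps14 (1.24 with TMM factors) to 2.59 for Rpl15. Rpl15 had 1508 CPM in WT and 1965 in CKO on HFD, and 789 in WT and 757 in CKO on normal diet, and both HFD libraries lay above the normal diet ones. Rps14 had 2142 CPM in WT and 1921 in CKO on HFD, and 2017 in WT and 2081 in CKO on normal diet.

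Coding length ran along with these ratios. Among the 11 members with up to 300 coding bases, all 11 were higher in CKO HFD than in WT HFD, 10 past 1.5-fold. Of the 204 genes outside the list in that length class, 45.6% also passed 1.5-fold higher in CKO HFD. Of the 11 members, 0 were above 1 for genotype on normal diet and 0 for diet in WT. By length classes of up to 300, 300 to 450, 450 to 600 and 600 to 1500 bases (11, 30, 19 and 23 members), the median log2 ratio of CKO to WT on HFD was 0.93, 0.41, 0.43 and 0.14. Genes outside the list showed 0.53, 0.31, 0.05 and −0.18 in the same classes (204, 433, 555 and 3143 genes). For genotype on normal diet the members' medians were −0.33, −0.07, −0.06 and 0.00, against −0.01, 0.04, 0.05 and 0.04. For diet in WT they were −0.44, 0.23, 0.44 and 0.69, against 0.02, 0.22, 0.21 and −0.06, so the longest members and the longest other genes lay on opposite sides. For diet in CKO they were 0.74, 0.70, 0.95 and 0.78, against 0.62, 0.51, 0.21 and −0.27.

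Whole mRNA length was examined in the same way. In mRNAs of up to 450, 450 to 700, 700 to 1300 and over 1300 bases, genotype on HFD gave members 0.85, 0.56, 0.25 and 0.08 (7, 29, 37 and 10 genes) and other genes 0.79, 0.59, 0.15 and −0.26 (33, 173, 869 and 6435 genes). Diet in WT gave members −0.53, 0.16, 0.48 and 0.63, and other genes −0.30, 0.14, 0.38 and −0.23. In both comparisons the medians of members of up to 700 bases lay on the same side of 0 as those of other genes of that length. Over the 83 members, which share libraries and depth, Spearman's rho of the log2 ratio with coding length was −0.58 for genotype on HFD. It was 0.60 for genotype on normal diet, 0.67 for diet in WT and 0.06 for diet in CKO. In the same order rho was −0.36, 0.41, 0.43 and 0.05 with mRNA length, and −0.15, 0.25, 0.24 and 0.07 with gene span. The 30 members with a snoRNA gene inside had a median log2 of 0.19 for genotype on HFD, against 0.43 for the 53 without, and 0.43 against 0.28 for diet in WT. What part RNA length or library quality had in the values was not tested.

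**Figure D4:**
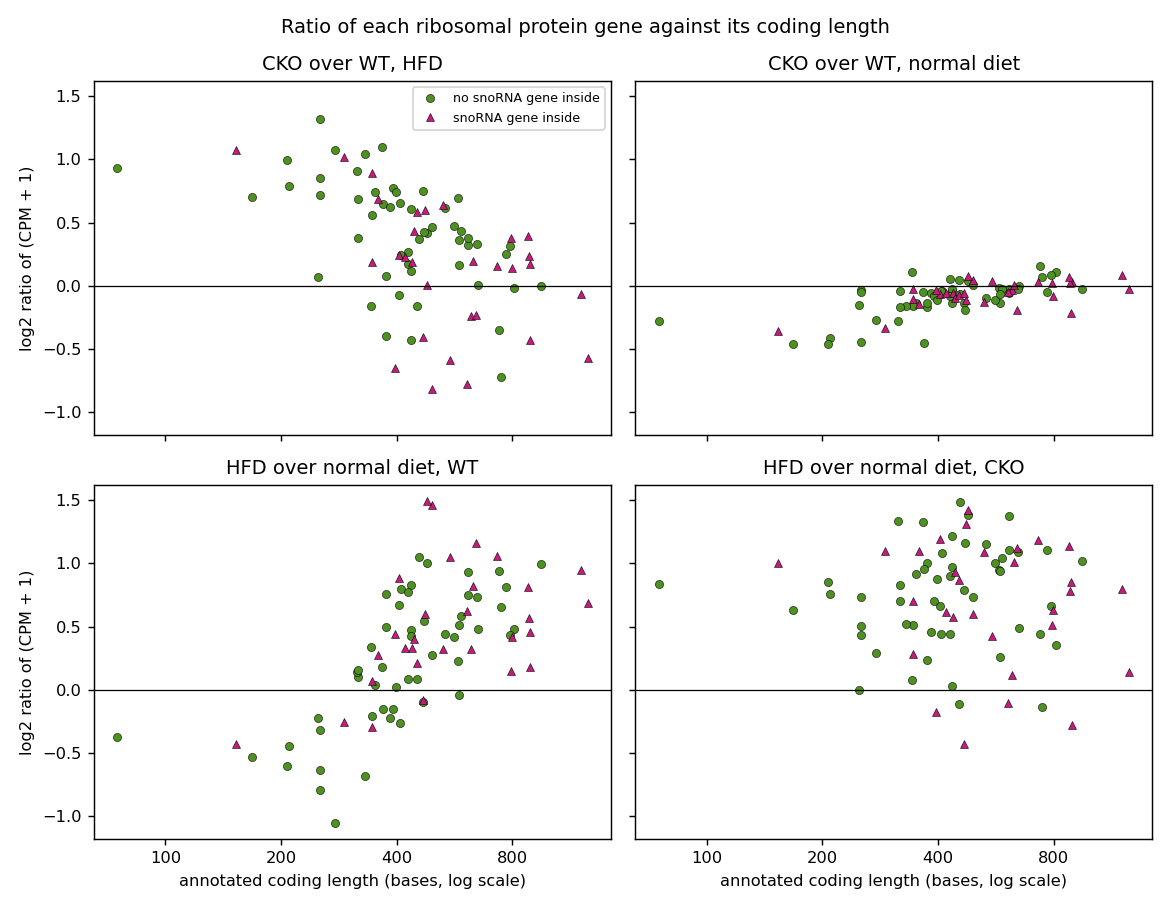
Log2 ratio of CPM + 1 of each of the 83 members against its coding length in bases on a log axis, 1 panel per comparison, with triangles for members that hold a snoRNA gene. For genotype on HFD the shortest members lie highest (median 0.93 up to 300 bases), and for diet in WT lowest (median −0.44).

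The cells were clustered without the ribosomal protein genes and the clusters named by marker genes, and classes with at least 50 cells in a library are given. Dendritic-like cells (led by Ccr7, Cd209a and Flt3) had 22.0%, 26.3%, 18.7% and 17.0% ribosomal protein UMIs. Resident-like macrophages (Folr2, Lyve1, Cd163) had 11.4%, 17.5%, 8.50% and 8.26%. The former exceeded the latter in all 4 libraries, by 1.93, 1.5, 2.20 and 2.06 times. Most resident-like cells of CKO HFD were in another cluster than those of normal diet, with 2632 of 2697 in cluster 1, while 1098 of 1100 in WT normal diet were in cluster 0. Classical monocyte-like cells (Plac8, Chil3, Ccr2) had 17.1%, 19.8%, 15.1% and 14.1%. Their name rests on these 3 markers, and Ly6c2 stood at 50.9 CPM there, against 72.6 in cluster 3 and 229 in cluster 15. With finer clustering (Leiden resolution 2) the name went to 1165 cells of CKO HFD with 24.4%, against 70 cells with 19.8% here. Lipid-associated-like macrophages (Gpnmb, Trem2, Spp1) had 16.2%, 19.1%, 15.4% and 14.1%, and dividing-like cells (Mki67, Top2a) 15.2%, 19.96%, 14.4% and 13.2%. The dividing-like class joined clusters 8 and 14, with C1qa at 2378 and 114 CPM. These held 445 and 21 cells in WT HFD and 585 and 34 in CKO HFD. On normal diet they held 25 and 82 in WT, and 58 and 104 in CKO. Dividing-like values by diet thus also compare different clusters. Non-classical monocyte-like cells (Ace, Treml4), seen in number on normal diet, had 10.4% in WT and 9.62% with the CKO label. Fibroblast-like cells (Dcn, Col1a1), seen in number on HFD, had 12.5% in WT and 16.8% in CKO.

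Clusters without a class name are given by number. Clusters 3, 4 and 11 came almost wholly from CKO HFD and had 24.0%, 22.2% and 19.9% there. Cluster 3 was led by AA467197, Chil3 and Hilpda, cluster 4 by Ccl4, Mt1 and Ccl2, and cluster 11 by Arg1, AA467197 and Ccl24. Cluster 2 (Rnase2a, Ccl8) came mostly from WT HFD (1892 of 2029 cells) and had 14.5% there and 17.9% in CKO HFD. Cluster 6 (Slpi, Prg4) came mostly from normal diet (602 cells of WT and 683 of CKO) and had 14.2% and 13.5%. Cluster 7 had 14.1%, 20.2%, 14.997% and 13.7%, and cluster 15 had 13.2% in WT and 13.9% in CKO on normal diet. A cluster from 1 library may be that library and not a type. Cluster 17, led by Immp2l, Ank2 and Slc9a9, had 1.35% in CKO normal diet (61 cells), with a median of 1052 UMIs per cell and 3.04% Malat1 over all its cells. Cluster 10, also shallow with a median of 1155.5 UMIs, had 16.9% in CKO HFD, and 9.39% in WT and 8.07% in CKO on normal diet. The part of depth in the shares of shallow clusters was not tested.

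Within a class the library ratios kept their side of 1 in most cases. At resolution 1, CKO over WT on HFD was above 1 in all 8 classes or clusters compared, from 1.15 in classical monocyte-like cells to 1.54 in resident-like cells. On normal diet it was below 1 in 9 of 10, from 0.859 in cluster 10 to 0.972 in resident-like cells, and 1.05 in cluster 15 (led by Igkc). HFD over normal diet in WT ran from 0.939 in cluster 7 (Lyz1, Cd226) to 1.34 in resident-like cells. In CKO it ran from 1.35 in lipid-associated-like cells to 2.12 in resident-like cells. The lower end depends on the clustering. At resolutions 0.5 and 2 the lipid-associated-like class of CKO HFD held 922 and 896 cells, against 121 at resolution 1. Its share was then 22.7% and 22.8%, against 14.1% and 14.2% in CKO normal diet. The resident-like class joined clusters 0 and 1, with 49 and 37 cells in WT HFD and 65 and 2632 in CKO HFD. On normal diet these held 1098 and 2 cells in WT, and 1577 and 13 in CKO. The resident-like ratios of 1.54, 1.34 and 2.12 thus also compare different clusters. Some members picked as uneven in the whole libraries were also read inside classes. The classes hold the same cells, so their values are a description and no separate support. For genotype on HFD the ratio of the share of ribosomal protein UMIs ran from 0.405 to 0.535 for Rpl12, 0.405 to 0.494 for Rps6 and 0.376 to 0.513 for Rpl13a over the 8. It ran from 1.47 to 1.92 for Rpl37a, 1.56 to 1.74 for Rpl39 and 1.27 to 1.81 for Rpl22l1. In resident-like cells Rpl37a (1.47) and Rpl22l1 (1.27) stayed under 1.5-fold, as did Rpl37a in dendritic-like cells (1.49). For diet in WT it was 2.22 to 2.50 for Rpl21 and 0.374 to 0.474 for Rpl37a over the 6 classes compared.

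A member's part of the pool in a class was set against its part in the whole library, as a log2 ratio averaged over libraries. The range of this ratio over classes had a median of 0.74 over the 83 members and was under 1 in 63. Rps27l had the widest range, 2.47, followed by Rpl23a with 1.65 and Rps27 with 1.56. Rps27l, a paralog of Rps27 and a known p53 target in human cells, had 426 CPM in WT and 701 in CKO on HFD, and 532 in WT and 519.9 in CKO on normal diet. Rpl23a was highest in cluster 10 (log2 1.40 above its library), and Rps27 in non-classical monocyte-like cells (0.84). Outside the shallow cluster 10, Rpl23a only ran from −0.25 in dendritic-like cells to 0.33 in cluster 2.

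Rps27l gave 22.3%, 20.8%, 17.2% and 21.7% of the UMIs of the Rps27l and Rps27 pair. In non-classical monocyte-like cells on normal diet it gave 5.69% (exact interval 5.01 to 6.43) in WT and 5.57% (4.76 to 6.47) in CKO. In dividing-like cells it gave 26.9%, 24.8%, 26.2% and 31.5%, and in cluster 15 on normal diet it gave 2.96% in WT and 3.79% in CKO, from 22 and 20 Rps27l UMIs. The low share of non-classical monocyte-like cells went with 209.5 CPM in WT and 156 in CKO of Rps27l, and 3474 and 2639 of Rps27. Rpl22l1 gave 25.7%, 32.5%, 20.7% and 20.8% of the Rpl22l1 and Rpl22 pair, highest in CKO HFD. In CKO HFD this was 44.4% in fibroblast-like and 25.8% in dendritic-like cells, and in WT HFD 34.7% and 18.2%. Rpl36al gave 47.2%, 52.5%, 48.1% and 50.4% of the Rpl36al and Rpl36a pair, the closest to even of the 3.

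**Figure D5:**
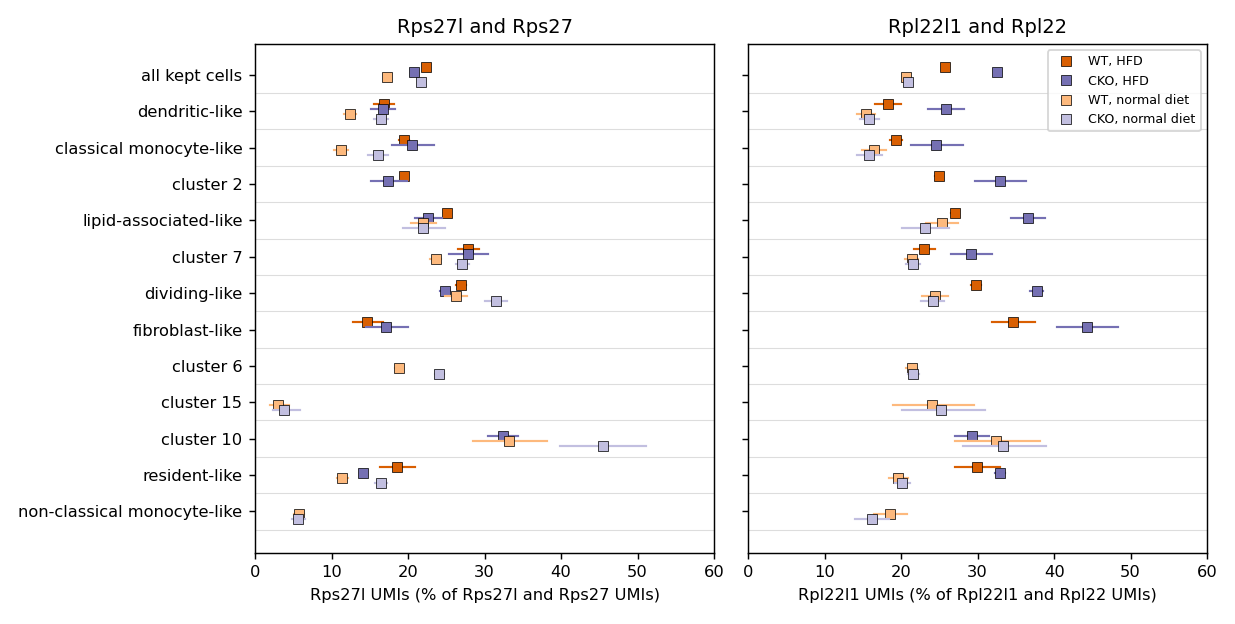
Percent of a paralog pair's UMIs given by the paralog (Rps27l of Rps27l and Rps27, Rpl22l1 of Rpl22l1 and Rpl22) in each class and library, with exact 95% intervals. Non-classical monocyte-like cells stand at 5.69% in WT and 5.57% in CKO on normal diet for Rps27l, below the 17.2% and 21.7% of all cells of those libraries.

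Other genes of translation are described by list. Fau and Rack1 encode ribosomal proteins that the symbols did not match. Fau, whose product is cleaved to a small-subunit protein, had 3859 CPM in WT and 6553 in CKO on HFD, and 3686 in WT and 3276 in CKO on normal diet. Rack1, a scaffold on the small subunit, had 1378, 1029, 1180.1 and 1158 CPM. Of 18 elongation factors and related pyrimidine-tract genes, 0 were higher and 1 lower on HFD for genotype, with a median log2 of −0.06. The lower one was Tpt1, with 6307 CPM in WT and 3879 in CKO on HFD, and 3717 in WT and 3969 in CKO on normal diet. Of 25 initiation factors 0 were higher and 1 lower (median −0.32). Of 39 assembly and RNA polymerase I genes 1 was higher and 6 lower (−0.10), and Ncl, a nucleolar factor, had 413, 347, 316 and 296 CPM. Of 10 snoRNA host genes 5 were higher and 0 lower (0.54), among them Snhg1 with 51.1, 98.9, 75.7 and 68.1 CPM. Of 77 mitochondrial ribosomal proteins 7 were higher and 1 lower (0.20). All these counts stand against the 5.38% and 20.7% given above for that comparison.

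On normal diet, 0 genes of these 5 lists passed 1.5-fold between genotypes (0.493% of all genes higher and 0.592% lower). For diet in WT, 35 mitochondrial ribosomal proteins were higher and 0 lower on HFD (median log2 0.50), and in CKO 47 and 1 (0.74), against 26 and 5, then 55 and 0, of the cytoplasmic ones. Over all genes 13.2% were higher and 24.6% lower in the former comparison, and 11.8% and 42.6% in the latter, and all list counts by diet stand against these. The assembly and RNA polymerase I list had 12 higher and 1 lower for diet in WT, and 4 and 4 in CKO. Elongation factors had 4 higher and 1 lower in WT, and 4 and 2 in CKO. Initiation factors had 6 and 2, then 4 and 2. The snoRNA hosts had 1 higher and 4 lower in WT (median −0.54), and 2 and 0 in CKO (0.16).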

How the data were processed

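Gene-by-cell UMI counts of 4 libraries were used as deposited. The authors made these counts with cellranger 7.0.0, per the file headers, on genome build GRCm38, per the submitters' processing notes. The sources used here do not say whether intronic reads were counted. Cells with at least 500 UMIs, 300 genes and at most 10% mitochondrial UMIs were kept. UMIs were summed per library and class and given as CPM of all UMIs. Levels have exact Poisson intervals, and shares and ratios exact (Clopper-Pearson) binomial ones, at 95%, for counting error only. With 1 library per group no test was run, and 1.5-fold served as the size rule over genes with 10 CPM in a compared library. Scanpy 1.11.5 and leidenalg 0.10.2 (resolution 1) gave clusters from genes other than the members, named from fixed markers: at least 3 among the 30 leading genes and 1 among the top 10. Scrublet called 0 doublets and all cells stayed. TMM factors came from edgeR 4.0.16. Gene models came from GENCODE M21 (32235 of 32285 IDs, 99.8%, matched) and start windows from RefSeq. The members named are the 3 highest and 3 lowest per comparison by their share of ribosomal protein UMIs (with 50 CPM and 100 UMIs or more in the higher of both), the 5 with the highest mean CPM, the 3 with the widest range over classes, paralogs with their partners, the stalk proteins and those nearest the minimum. Rpl17, Rpl37, Rpl38, Rpl31, Rpl15, Rps2, Rps3, Rps14 and Rps27a, and the members listed by call, were named after their values were seen. The members and lists were chosen with earlier results of these data known. Some listed genes are not reported here. The ratio script was checked on simulated counts.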

Additional observations from a re-analysis of the deposited data

Results flagged for a closer look

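The effect of the CKO label had opposite directions on the 2 diets for several values, in that 1 library per group lay above its partner on HFD and below it on normal diet, or the reverse. With 1 library per group this difference was not tested. The share of UMIs from ribosomal protein genes had a ratio of CKO to WT of 1.34 on HFD and 0.913 on normal diet. The CPM ratio was higher on HFD for Rpl37a (2.10 against 0.828), Rpl39 (2.10 against 0.779), Rpl41 (1.90 against 0.824), Rps28 (2.00 against 0.729) and Rps29 (1.63 against 0.728). It was also higher on HFD for Rpl35a (2.06 against 0.895), Rpl22l1 (2.14 against 0.968), Rpl35 (1.57 against 0.730), Rps27 (1.80 against 0.734) and Rps24 (1.67 against 0.927). It was lower on HFD for Rpl12 (0.569 against 1.03) and Rps6 (0.605 against 1.05).

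The effect of HFD likewise lay on opposite sides of 1 in the WT and CKO pairs for 11 named members, again untested. It was below 1 in WT and above 1 in CKO for Rpl37a (0.483 and 1.23), Rpl35a (0.623 and 1.43), Rps27 (0.579 and 1.42), Rps27rt (0.633 and 1.69), Rps28 (0.660 and 1.81), Rps29 (0.694 and 1.55), Rpl39 (0.742 and 2.00), Rpl41 (0.773 and 1.79) and Rpl35 (0.901 and 1.94). It was above 1 in WT and below 1 in CKO for Rps6 (1.58 and 0.909) and Rpl13a (1.54 and 0.929). Other totals turn some of these: with TMM factors Rps6 and Rpl13a in CKO stood at 1.22 and 1.25 and Rpl35 in WT at 1.02, and with the genes below the median span as total Rpl37a in CKO stood at 0.993.

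All of these values share the 4 libraries, so they are not separate observations.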

How the results depend on the processing

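Depth and labels limit these values: there was 1 library per group, so leaving out a replicate was not possible. No paired analysis was possible because each group holds only replicate 1 and no result comes from a test. No share ratio or class ratio changed its side of 1 under any alternative. TMM factors moved the median of all genes by 0.21, −0.04, 0.17 and 0.43 on the log2 scale for genotype on HFD, genotype on normal diet, diet in WT and diet in CKO, and the total over genes below the median span by −0.14, 0.02, −0.15 and −0.30. Direction changed for 6, 9, 5 and 6 members under TMM and 6, 0, 7 and 8 under the latter, with 0 of them past 1.5-fold. In the same order of comparisons, the share ratios 1.34, 0.913, 1.14 and 1.67 became 1.55, 0.887, 1.28 and 2.25 with TMM factors, 1.27, 0.918, 1.17 and 1.62 without mitochondrial and nuclear transcripts, and 1.22, 0.924, 1.03 and 1.35 over genes below the median span. They became 1.33, 0.905, 1.24 and 1.83 with cells thinned to 2000 UMIs, and 1.28, 0.923, 1.10 and 1.53 with equal weight to 6 classes. They were 1.34, 0.911, 1.13 and 1.66 without the highest Scrublet scores, and 1.34, 0.916, 1.17 and 1.71 without dendritic-like and fibroblast-like cells. With at most 5% mitochondrial and at least 1000 UMIs they were 1.34, 1.13 and 1.66 for genotype on HFD, diet in WT and diet in CKO. The split of members higher and lower was 40 and 1 with TMM, 21 and 6 without mitochondrial and nuclear transcripts and 16 and 6 over genes below the median span for genotype on HFD (28 and 5 with all UMIs). For diet in WT it was 41 and 2, 28 and 4, and 21 and 7 (26 and 5), and for diet in CKO 72 and 0, 52 and 0, and 34 and 1 (55 and 0), the last a count of 35. The uneven members of diet in CKO went from 17 (6 higher, 11 lower) to 10 (1 higher, 9 lower) with equal weight to classes. Dendritic-like over resident-like cells, 1.93, 1.5, 2.20 and 2.06 times in WT and CKO on HFD and in WT and CKO on normal diet, gave 1.69, 1.29, 2.14 and 2.03 at Leiden resolution 0.5. At resolution 2 it gave 1.73, 2.38 and 2.28 in WT on HFD and in WT and CKO on normal diet. Thinned cells gave 1.94, 1.52, 2.19 and 2.05.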

Other observations

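Names marked as pseudogenes were left out of the list, and some carried UMIs at the level of the lowest members. In WT and CKO on HFD, then WT and CKO on normal diet, Rpl10-ps3 had 18.95, 18.5, 14.2 and 10.9 CPM. Rpl9-ps6 had 11.7, 20.1, 10.5 and 14.1 CPM and Rpl36a-ps1 9.93, 15.4, 7.25 and 9.55 CPM in the same order. Rpl9-ps1 had 1 UMI in all, in CKO HFD, and Rpl36-ps4 had 0.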
